A study of Mus musculus with 6 samples.

Results

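The cadherins and protocadherins studied here are 57 genes, found among 19938 genes that have a probe set with a single gene symbol, and chosen by symbol alone. They are the genes named Cdh, Pcdh or Pcdhb with a number, and no expression value entered the choice. Where a gene had several probe sets, the one with the highest average signal stands for it. The family has 61 probe sets in all, and 4 genes (Cdh18, Cdh24, Pcdh9 and Pcdh15) have a second one.

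Cadherins are membrane proteins that join cells by calcium-dependent binding between their extracellular repeats. Classical cadherins of type I and type II hold on to the actin skeleton through catenins, and the type I member Cdh2 is the main cadherin of the junctions that keep neural progenitors together at the ventricle. Protocadherins have no catenin-binding tail. They include the delta protocadherins, several of which recruit actin regulators, and clustered genes such as the beta protocadherins, which stand in a row on 1 chromosome and give neurons individual surface identities.

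The samples were neural stem cell cultures from the subventricular zone, 3 arrays for the third ventricle and 3 arrays for the lateral ventricle. All came from wild-type female C57BL/6 mouse embryos at embryonic day 17.5, and all grew in low-attachment dishes with FGF and EGF (each 20 ng/ml) and the supplements B27 and N2. Amplification of RNA started from 500 pg to 50 ng, and values are log2 expression after RMA, on which a difference of 1 is a doubling of signal. The comparison asks which members differ between stem cells of these regions, with differences given as the third minus the lateral ventricle. The labels call the arrays biological replicates without tying a number to an animal, so each p-value reflects how far these cultures spread.

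Of 12 neural stem and progenitor markers, 11 lay above the background gauge in all 6 arrays and 0 passed (limma, 1 with an unadjusted p below 0.05). Differences were negative for 8 of the 12, against 54.6% of all genes, with a median of -0.08. The 4 positive differences were those of Fabp7 (0.05), Vim (0.19), Hes1 (0.50) and Nes (0.53). Nes differed by 0.86 without lateral ventricle array 2, where it passed (limma, adjusted p = 0.0103) in a fit that called 8.25% of all genes. The 8 negative differences reached down to -0.37. The gauge is the 95th percentile of 1027 olfactory receptor genes, which neural stem cells should lack, and lay at 5.07 to 5.12 in the third and 5.03 to 5.16 in the lateral ventricle arrays. Endothelial markers had 6 of 9, meningeal or mesenchymal markers 5 of 9, choroid plexus or epithelial markers 4 of 8 and microglial markers 5 of 6 genes at or below it in all arrays. Pecam1, Cldn5, Lum, Ttr and Csf1r were among them. Above it in all 6 arrays were 1 endothelial, 3 meningeal or mesenchymal, 3 choroid plexus or epithelial and 0 microglial markers. Array 2 of the lateral ventricle was unlike the rest of its group: over all genes its correlation was 0.991 with arrays of the third ventricle, against 0.980 and 0.982 with its fellow arrays 1 and 3. The summed signal of 11 cell cycle genes was 9260 to 9423 in the third ventricle arrays, and 3080, 9343 and 4321 in lateral ventricle arrays 1, 2 and 3. Results are therefore also given without that array. Each of the 11 cell cycle genes was higher in the third ventricle cultures (median 1.15), and 0 passed over all arrays (limma). Without lateral ventricle array 2 all 11 passed (median 1.69), and that fit called 8.25% of all genes, against 0.231% over all arrays. Calls made only there set the third ventricle against lateral arrays of lower cell cycle signal. Region and cell cycle signal cannot be told apart in them.

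Of the 57 members, Pcdh15 was lower in the third ventricle cultures and the other 56 did not pass (limma, adjusted p below 0.05 over all genes). That rule called 0.231% of all genes, and 0.0853% as lower. Groups did not overlap for 11 of the 57 members (19.3%), against 17.0% of all genes. Of the 11, 3 were higher and 8 lower (5.26% and 14.0% of the members, against 7.77% and 9.24% of all genes). Another count gave much the same: 9 members (15.8%) had an unadjusted p below 0.05, against 12.6% of all genes. Without regard to direction, both shares are close to the background. Of the 9, Cdh8 was higher in the third ventricle cultures (1.75% of the members, against 6.21% of all genes). The other 8 were lower (14.0% of the members, against 6.43% of all genes), and 4 of the 8 were beta protocadherins. The median difference was -0.10 over the members and -0.02 over all genes. Background also bears on how much can be read: 23 members lay above the gauge in all 6 arrays, 25 in none and 9 in some.

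**Figure D1:**
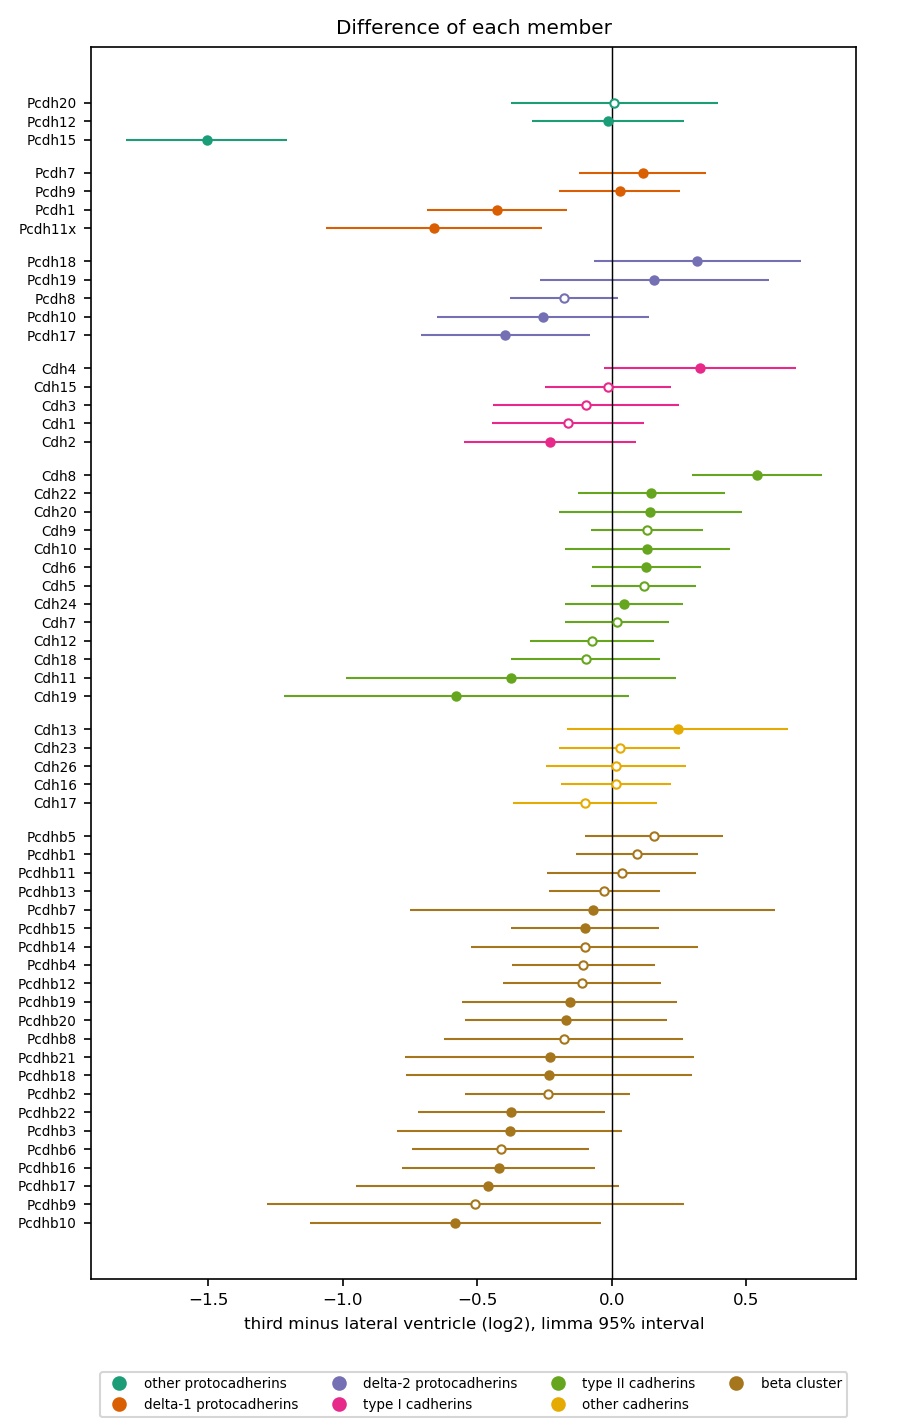
Difference of each of the 57 members, the third minus the lateral ventricle in log2 units, with limma 95% intervals and colours for the classes; open points never exceed the background gauge on any array. Pcdh15 stands alone at -1.51. Type II cadherins lie mostly right of 0 and beta protocadherins mostly left of it, with open points in both classes.

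The promoters of Pcdh15, the member that passed, and of Cdh8, next by p-value and opposite in sign, are shown to set beside their signals. RefSeq promoters, with 250 bases before and 50 after the start, were at hand for 22 of the 57 members, in build GRCm38.p6. Capitals mark the TATA box (TATAAA), the GC box (GGGCGG) and the CCAAT box (CCAAT), each searched on both strands. The Pcdh15 window lies at chr10:73821617-73821916 on the plus strand and the Cdh8 window at chr8:99416422-99416721 on the minus strand.
Pcdh15: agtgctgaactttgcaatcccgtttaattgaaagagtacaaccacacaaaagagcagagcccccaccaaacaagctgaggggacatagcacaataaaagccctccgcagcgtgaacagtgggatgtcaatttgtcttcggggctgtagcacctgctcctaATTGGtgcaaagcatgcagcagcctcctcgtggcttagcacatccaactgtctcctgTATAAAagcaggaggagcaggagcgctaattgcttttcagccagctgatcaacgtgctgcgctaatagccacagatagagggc
Cdh8: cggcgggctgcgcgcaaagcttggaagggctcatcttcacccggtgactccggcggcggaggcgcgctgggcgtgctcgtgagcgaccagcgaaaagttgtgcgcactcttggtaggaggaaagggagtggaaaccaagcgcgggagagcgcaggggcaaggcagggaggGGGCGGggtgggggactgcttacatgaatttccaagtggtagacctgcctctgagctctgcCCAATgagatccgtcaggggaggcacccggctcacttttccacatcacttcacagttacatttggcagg
Pcdh15 had a TATA box 33 bases before the start and a CCAAT box on the reverse strand 90 bases before it. An E-box of Snai and Zeb factors (CACCTG), left in lower case, lay 102 bases before the same start. The forkhead site (GTAAACA), also searched, was in 0 of the 22 members with a promoter. Cdh8 had a GC box 80 bases and a CCAAT box 19 bases before its start. Of 32851 promoters of the same length, 13.6% held the TATA box, 35.7% the GC box, 37.4% the CCAAT box and 20.2% the E-box. The 2 windows held 8 CpG dinucleotides in Pcdh15 and 21 in Cdh8, against a median of 7 over all promoters. These letters describe the windows and say nothing of which factors bind there.

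Pcdh15 encodes the protocadherin that forms the tip links of inner ear hair cells together with Cdh23, and in the brain its transcript is known from oligodendrocyte progenitors. Its log2 expression (probe set 10363921) was 5.96, 5.66 and 5.66 in the third ventricle arrays, against 7.41, 7.32 and 7.07 in the lateral ventricle arrays. All values of the third ventricle lay below all lateral ones, with a gap far wider than the spread inside either group, and lateral ventricle array 2 sat between the other lateral arrays. The means were 5.76 ± 0.17 in the third and 7.27 ± 0.18 in the lateral ventricle cultures (SD, n = 3 each). The difference was -1.51 (SE 0.13, 95% interval -1.81 to -1.21), a 2.84-fold lower signal (limma, adjusted p = 0.00707).

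The call held without lateral ventricle array 2 (-1.48, adjusted p = 0.000831), where 2 of 57 members passed against 8.25% of all genes. Against lateral ventricle array 2 alone the difference was -1.56 (adjusted p = 0.00917), with that single array assumed to vary like the others, and 1 of 57 members passed against 0.296% of all genes. Adjusted p was 0.0858 without array 2 and 0.0798 without array 3 of the third ventricle, at differences of -1.46 in both fits. In these 2 limma fits 0 of 57 members passed, against 0.0201% of all genes, and 7 members (12.3%, against 7.35% of all genes) and 4 members (7.02%, against 7.59%) had an unadjusted p below 0.05.

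The second Pcdh15 probe set (10363915) gave another picture. It read 5.29, 5.11 and 5.25 in the third ventricle arrays, against 5.14, 5.36 and 5.48 in the lateral ventricle arrays. The groups overlapped and the values stood at or just above the gauge (difference -0.11, limma adjusted p = 0.740 over all single-symbol probe sets). With the mean of both probe sets Pcdh15 differed by -0.81 (adjusted p = 0.0269). Which transcripts each probe set detects is not given in the files, so the call rests on 1 probe set.

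**Figure D2:**
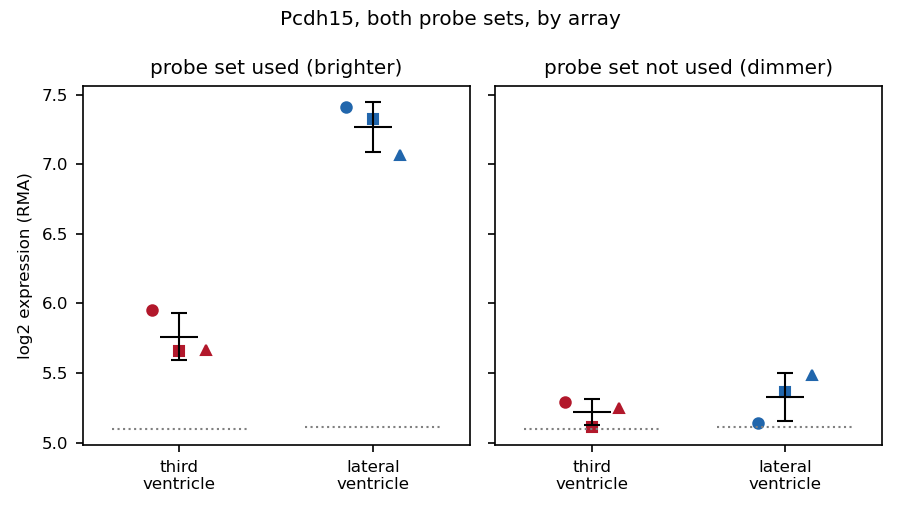
Log2 expression of Pcdh15 by array for the probe set used (left) and the other one (right), with the third ventricle in red left of the lateral ventricle in blue. Circles, squares and triangles are arrays 1, 2 and 3, black marks the mean ± SD and dotted lines the mean background gauge; the groups are apart at 5.66 to 5.96 and 7.07 to 7.41 in the left panel and overlap near the gauge in the right one.

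Of 8 measured markers of oligodendrocyte progenitors, 6 had a negative difference, against 54.6% of all genes. Of the 8, 4 had an unadjusted p below 0.05, all lower, against 6.43% of all genes. The 2 that passed were lower in the third ventricle cultures, as were 0.0853% of all genes. Pdgfra, the PDGF receptor of these cells, differed by -1.79 and Lhfpl3 by -1.22 (limma, adjusted p = 0.00707 and 0.00746). All 8 lay above the gauge in every array. Their summed signal was 1206 to 1259 in the third ventricle arrays, against 1798 to 1940 in the lateral ventricle arrays, with no overlap, and their median difference was -0.43. Gpr17 (-1.35) and Sox10 (-0.74) did not pass over all arrays. They passed in the fit that leaves out array 2 of the lateral ventricle, which called 8.25% of all genes. Olig1 and Olig2, transcription factors of the lineage, differed by 0.17 and 0.09. In bulk cultures, fewer cells of a type and less RNA per cell cannot be told apart, and the part of these cells in the Pcdh15 result was not tested.

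Of 9 measured genes that work with Pcdh15 and Cdh23 in hair cells, 0 passed (limma; 0 had an unadjusted p below 0.05), and the median difference was 0.02. The channel genes Tmc1 and Tmc2 and the channel partner Lhfpl5 were at or below the gauge in all 6 arrays. Cdh23 itself, the tip-link partner, was at 4.12 to 4.13 in the third and 4.01 to 4.25 in the lateral ventricle arrays, below the gauge throughout. The scaffold Ush1g differed by -0.22 and the adhesion receptor Adgrv1 by 0.14, both above the gauge in all arrays.

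Among the delta-1 protocadherins, Pcdh11x and Pcdh1 were lower in every array of the third ventricle than in any lateral one, but neither passed. Pcdh11x, an X-linked protocadherin of the nervous system, was at 7.98, 8.48 and 8.30 in the third ventricle arrays, against 8.61, 8.99 and 9.14 in the lateral ventricle arrays. Its highest value in the third ventricle came within a short distance of the lowest lateral one. The difference was -0.66 (SE 0.17, 95% interval -1.06 to -0.26, limma adjusted p = 0.253), a 1.58-fold lower signal. Without lateral ventricle array 2 it was -0.62 (adjusted p = 0.0981).

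Pcdh1 was at 4.92, 4.87 and 4.86 in the third ventricle arrays, against 5.10, 5.39 and 5.45 in the lateral ventricle arrays. It lay above the gauge in all 3 lateral arrays and in none of the third ventricle, so that its signal was at least 1.16-fold lower there, with each array below the gauge set to the gauge (difference -0.43, SE 0.11, limma adjusted p = 0.253). Pcdh7 and Pcdh9, adhesion molecules widely present in the brain, had groups that overlapped. Pcdh7 was at 7.86, 7.97 and 8.05 in the third ventricle arrays, against 7.83, 7.96 and 7.74 in the lateral ventricle arrays (difference 0.11, 95% interval -0.12 to 0.35). Pcdh9 was at 9.09, 9.01 and 8.89 in the third ventricle arrays, against 9.03, 9.0 and 8.88 in the lateral ventricle arrays. Its difference was 0.03 (95% interval -0.20 to 0.25) and that of its second probe set -0.04.

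The delta-2 protocadherins, some of which bind the WAVE actin regulator, had 4 of 5 members above the gauge in all arrays. Pcdh17 was at 7.51, 7.31 and 7.29 in the third ventricle arrays, against 7.90, 7.91 and 7.50 in the lateral ventricle arrays. Its groups met at 7.51 and 7.50, and the difference of -0.40 (SE 0.14) did not pass (limma, adjusted p = 0.336). Pcdh10, a protocadherin of axon growth and synapse removal, was at 8.69, 8.33 and 8.29 in the third ventricle arrays, against 8.79, 8.93 and 8.36 in the lateral ventricle arrays. Its groups overlapped (difference -0.26, 95% interval -0.65 to 0.14). Pcdh18 (0.32) and Pcdh19 (0.16), the X-linked gene of a female epilepsy, had positive differences whose intervals included 0. In the third ventricle cultures their SDs were both 0.34, with array 2 lowest. Pcdh8 was below the gauge in all 6 arrays.

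Partners of the delta protocadherins had 0 of 10 genes past the threshold in limma. An unadjusted p below 0.05 was found for 5 of the 10, against 12.6% of all genes. Of the 5, 3 were higher and 2 lower (6.21% and 6.43% of all genes). Nckap1, the WAVE complex subunit that binds Pcdh10 and Pcdh17, differed by -0.13 and the WAVE subunit Abi2 by 0.32, or by 0.46 without lateral ventricle array 2, where it passed as higher (adjusted p = 0.0359). Cyfip2, another subunit, was at 6.08, 6.00 and 6.09 in the third ventricle arrays, against 7.64, 6.77 and 6.86 in the lateral ventricle arrays. These groups did not overlap, and the difference of -1.03 did not pass over all arrays (limma, adjusted p = 0.15). It did, as lower, without lateral ventricle array 2 (-1.19, adjusted p = 0.0099), in a fit that called 8.25% of all genes.

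Of the type I cadherins, Cdh2 (N-cadherin) and Cdh4 (R-cadherin) lay above the gauge in all 6 arrays. Cdh2 was at 8.44, 8.25 and 8.40 in the third ventricle arrays, against 8.58, 8.86 and 8.34 in the lateral ventricle arrays. The groups overlapped, with a difference of -0.23 (95% interval -0.55 to 0.09). Cdh4 was at 7.20 to 7.35 in the third ventricle arrays, against 6.60, 7.21 and 7.03 in the lateral ventricle arrays, a difference of 0.33 (limma, adjusted p = 0.428) that was 0.46 without lateral ventricle array 2 (adjusted p = 0.0941) and 0.06 against that array alone. Cdh1, Cdh3 and Cdh15, the cadherins of epithelium, placenta and muscle, were between 3.97 and 4.85 and below the gauge in all 6 arrays. Of 10 regulators of cadherin transcription, 0 passed (limma, 1 with an unadjusted p below 0.05). Zeb1, a repressor of Cdh1, differed by 0.30 and Tcf4 by -0.01.

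Of 15 measured catenins and junction partners, the inner side of these adhesions, 0 passed (limma, 2 with an unadjusted p below 0.05) and the median was 0.05, with beta-catenin Ctnnb1 at 0.05 and the p120 catenin Ctnnd1 at 0.07. Magi1, a junction scaffold, differed by 0.32 and passed when array 2 of the lateral ventricle was left out (0.46, adjusted p = 0.0373). Among 8 nectins and related adhesion molecules 0 passed (limma, 2 with an unadjusted p below 0.05). Cadm1 differed by -0.04, and Nectin3 by 0.36, or 0.46 in the fit that leaves out array 2 of the lateral ventricle, where it passed (adjusted p = 0.0320). Of 7 genes that shed or process cadherins 0 passed (limma, 1 with an unadjusted p below 0.05). Adam10, the main sheddase of Cdh2, differed by 0.18, Adam17 by 0.05, and the membrane protease Mmp14 by -0.86 (adjusted p = 0.236), or -1.08 (adjusted p = 0.00659) without lateral ventricle array 2.

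The type II cadherins included Cdh8, the only member with an unadjusted p below 0.05 that was higher in the third ventricle cultures. Cdh8 marks restricted regions of the embryonic forebrain. It was at 5.62, 5.49 and 5.31 in the third ventricle arrays, against 4.92, 4.96 and 4.91 in the lateral ventricle arrays. All 3 arrays of the third ventricle lay above the gauge and all 3 lateral ones below it, which puts its signal in cultures of the third ventricle at least 1.28-fold above that of the lateral ventricle. The measured difference was 0.54 (SE 0.10, 95% interval 0.30 to 0.78) and did not pass over all arrays (limma, adjusted p = 0.122). It passed when array 2 of the lateral ventricle was left out (0.56, limma adjusted p = 0.0238), in a fit that called 8.25% of all genes. The size of the difference hardly moved there, and against that array alone it was 0.51.

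Of the 13 type II cadherins, 9 had a positive difference (69.2%, against 45.4% of all genes), and the median of the 13 was 0.12. It was 0.02 without lateral ventricle array 1, 0.07 without array 2 and 0.03 against array 2 alone. Over all arrays the median was the value of Cdh5. Cdh5 was among the 5 of the 13 that never exceeded the gauge. Cdh6 lay at 7.15, 7.22 and 7.10 in the third ventricle arrays, against 7.09, 7.01 and 6.98 in the lateral ventricle arrays, a small shift (0.13, 95% interval -0.08 to 0.33) without overlap. Cdh10 was at 8.03, 7.74 and 7.79 in the third ventricle arrays, against 7.96, 7.57 and 7.64 in the lateral ventricle arrays (0.13). Cdh20 was at 7.66, 7.81 and 7.88 in the third ventricle arrays, against 7.37, 7.93 and 7.62 in the lateral ventricle arrays (0.14, and -0.14 against lateral ventricle array 2 alone). The groups of both overlapped. Cdh22 (0.15) and Cdh24 (0.05) lay above the gauge in all arrays and their groups overlapped too.

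Cdh11, a cadherin of mesenchyme that neural progenitors also express, was at 7.79, 7.54 and 7.07 in the third ventricle arrays, against 8.32, 7.89 and 7.32 in the lateral ventricle arrays. Its arrays spread widely in both groups, and the difference of -0.38 had a 95% interval of -0.99 to 0.24. Cdh19, known from Schwann cell precursors of the rat, lay above the gauge only in lateral ventricle array 3, at 5.21, with the other 5 arrays at 3.70 to 4.27. Cdh5, the cadherin of blood vessels, was at 4.40 to 4.44 in the third and 4.27 to 4.34 in the lateral ventricle arrays, all below the gauge, as were Cdh7, Cdh9, Cdh12 and Cdh18.

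Among the other cadherins, Cdh13 was the single one above the gauge. This T-cadherin, held to the membrane by a lipid anchor, was at 7.40, 7.27 and 7.24 in the third ventricle arrays, against 7.19, 6.63 and 7.35 in the lateral ventricle arrays. Lateral ventricle array 2 was the low one. The difference was 0.25 over all arrays, 0.03 without that array and 0.67 against it alone (limma, adjusted p = 0.0929). Cdh16, Cdh17, Cdh23 and Cdh26, mostly cadherins of kidney, gut and sensory epithelium, stayed below the gauge, as did Pcdh20. Pcdh12, an endothelial protocadherin, lay above the gauge in 1 array of each group (difference -0.01).

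**Figure D3:**
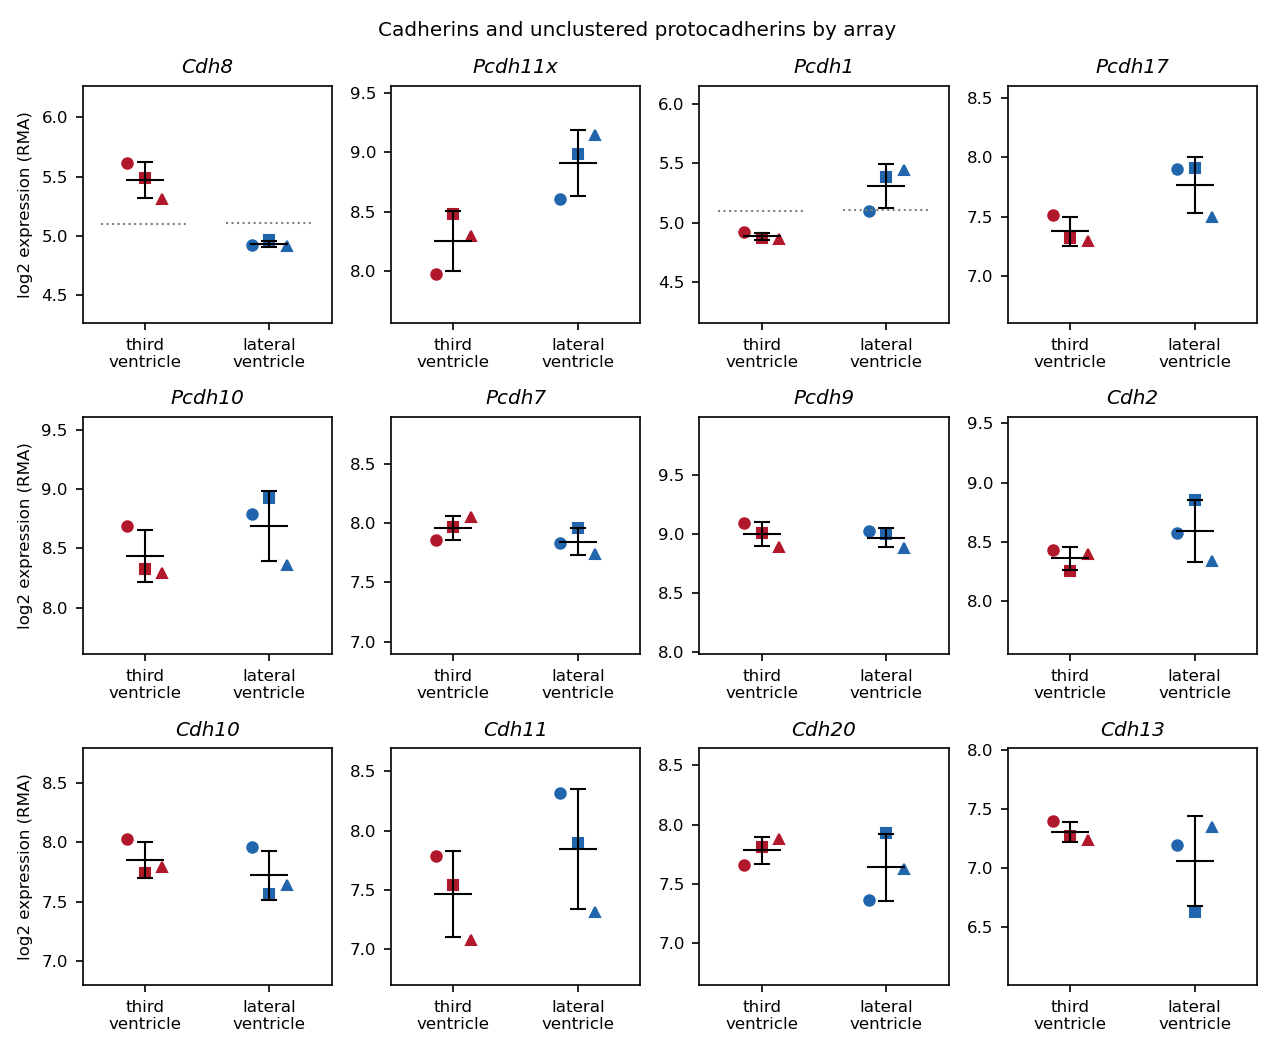
Log2 expression by array of 12 cadherins and unclustered protocadherins, with the third ventricle in red left of the lateral ventricle in blue and each panel spanning 2 log2 units. Circles, squares and triangles are arrays 1, 2 and 3, black marks the mean ± SD and dotted lines, where in range, the mean background gauge; the groups are apart in Cdh8, Pcdh11x and Pcdh1.

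Of 17 measured large and atypical cadherins outside the naming rule, 1 passed in limma, against 0.231% of all genes. This was Fat4, a giant cadherin of planar polarity and progenitor growth control, higher in the third ventricle cultures. It was at 6.66, 6.71 and 6.74 in the third ventricle arrays, against 5.91, 5.81 and 5.63 in the lateral ventricle arrays. The groups did not overlap, and lateral ventricle array 2 lay inside its own group. The difference was 0.92 (SE 0.10, limma adjusted p = 0.0179). Its ligand Dchs1 differed by -0.29 and its relative Fat1 by 0.30, without passing (adjusted p = 0.290 and 0.327). The median of the 17 was 0.03.

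Of the 22 beta protocadherins, 0 passed (limma, 4 with an unadjusted p below 0.05, all lower), 19 had a negative difference (86.4%, against 54.6% of all genes) and the median was -0.18. In 14 of the 22 (63.6%) lateral ventricle array 1 was the highest of the 6 arrays, against 19.5% of all genes. Leaving out array 1 of the lateral ventricle gave a median of -0.09, leaving out its array 2 gave -0.30, and setting its array 2 alone as the comparison gave -0.11. Array 3 of the third ventricle was the lowest array in 12 of the 22, against 13.6% of all genes. The genes are close paralogs, so their values are uncertain as to member, and how far the probe set of one detects another was not tested.

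Members above the gauge in all 6 arrays were found at 1 end of the row. Of Pcdhb15 to Pcdhb22, 6 of 8 lay above the gauge in all 6 arrays and 0 in none, while of Pcdhb1 to Pcdhb14, 0 of 14 lay above it in all arrays and 11 in none. Order along the chromosome follows the numbers. Pcdhb16 was at 5.87, 5.68 and 5.49 in the third ventricle arrays, against 6.41, 5.94 and 5.96 in the lateral ventricle arrays, without overlap (difference -0.42, SE 0.16, limma adjusted p = 0.351). Pcdhb22 was at 6.16, 6.22 and 5.84 in the third ventricle arrays, against 6.71, 6.30 and 6.33 in the lateral ventricle arrays, again without overlap (-0.37, SE 0.15, adjusted p = 0.369). In both, array 1 was the highest of the lateral ventricle and the other lateral arrays stood just above the third ventricle.

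In Pcdhb17 and Pcdhb18 the same array was again the highest. Lateral ventricle array 1 read 6.80 for Pcdhb17 and 6.74 for Pcdhb18, while lateral ventricle array 2 lay inside the third ventricle range at 5.96 and 5.79. Pcdhb10 was at 4.28, 4.25 and 4.12 in the third ventricle arrays, against 5.41, 4.46 and 4.52 in the lateral ventricle arrays, above the gauge in lateral ventricle array 1 alone (-0.58, SE 0.24, adjusted p = 0.371). Pcdhb3, Pcdhb7 and Pcdhb21 likewise passed the gauge in that array only, at 5.34, 5.67 and 5.09. Pcdhb6 was at 4.21, 4.55 and 4.10 in the third ventricle arrays, against 4.83, 4.76 and 4.51 in the lateral ventricle arrays, below the gauge throughout. The 11 beta members at or below the gauge in all arrays had values of 2.86 to 5.11 and differences of -0.51 to 0.16. Of the brighter rest, Pcdhb15, Pcdhb20 and Pcdhb19 had negative differences (-0.10, -0.17 and -0.16) and overlapping groups.

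Neurons are the known site of clustered protocadherins. The summed signal of 10 neuronal markers was 852, 748 and 746 in the third ventricle arrays, against 1189, 893 and 1026 in the lateral ventricle arrays. Lateral ventricle array 1 had the highest sum. It was the highest array in 3 of the 10 genes, against 19.5% of all genes. No other array was the highest in more than 2 of the 10. The median deviations of the lateral arrays were 0.07 each. None of the 10 passed in limma. An unadjusted p below 0.05 was found for 5 of the 10, 1 higher and 4 lower, against 12.6% of all genes. Above the gauge in all arrays lay 6, and Stmn2 and Syt1 lay below it in all. Snap25 differed by -0.25, Tubb3, a neuronal tubulin, by -0.60, and Dcx, a marker of young neurons, by -1.63. With array 2 of the lateral ventricle left out, Tubb3 (-0.78, adjusted p = 0.0175) and Dcx (-1.92, adjusted p = 0.00523) passed. Their part in the beta protocadherin differences was not tested. Astrocyte markers had 0 of 6 past the threshold in limma (2 with an unadjusted p below 0.05), 5 negative differences and a median of -0.16. Aldh1l1 differed by -0.43 and Sparcl1 by 0.94, which passed with array 2 of the lateral ventricle left out (0.68, adjusted p = 0.0200). Their summed signal, to which Sparcl1 contributes with the opposite sign to the other 5, was 1866 to 2191 in the third and 994 to 1791 in the lateral ventricle arrays.

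**Figure D4:**
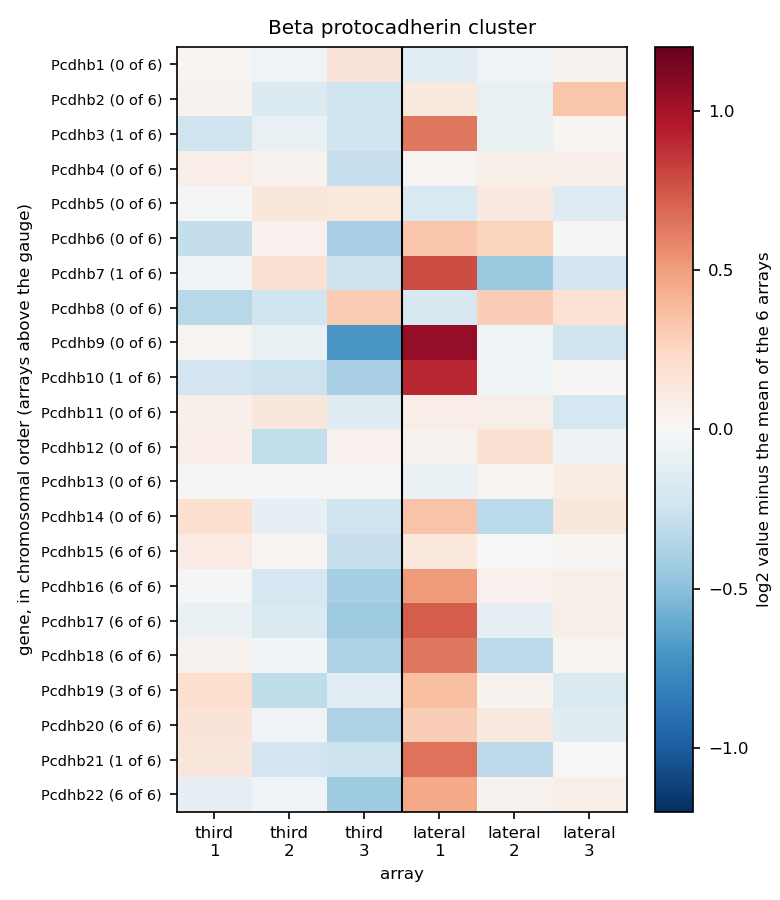
Log2 value minus the mean of the 6 arrays for the 22 beta protocadherins in chromosomal order (rows, with the number of arrays above the background gauge), with the third ventricle arrays left of lateral ventricle arrays. Lateral ventricle array 1 is the darkest red column, up to 1.06 in Pcdhb9, and the 6 genes above the gauge in all arrays lie between Pcdhb15 and Pcdhb22.

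Of 13 measured genes that regulate the clustered protocadherins, 0 passed (limma, 0 with an unadjusted p below 0.05). Without lateral ventricle array 2, 3 passed, all higher, in a fit that called 8.25% of all genes. Lateral ventricle array 2 was the highest array in 10 of the 13, against 21.3% of all genes. Ctcf, the insulator protein that loops the cluster's promoters, was at 9.10, 9.08 and 9.19 in the third ventricle arrays, against 8.68, 9.21 and 8.66 in the lateral ventricle arrays. Lateral ventricle array 2 lay just above the third ventricle arrays and the other lateral arrays below them (0.28 over all arrays, 0.45 without array 2, adjusted p = 0.0251). The cohesin subunits Rad21 (0.28) and Smc1a (0.22) and the silencer Smchd1 (0.21) had the same order.

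Lateral ventricle array 2 was nearer to the third ventricle mean than to the mean of lateral ventricle arrays 1 and 3 for 25 of the 57 members (43.9%), against 58.8% of all genes. For the beta cluster it was so in 12 of 22 and for the delta-2 protocadherins in 0 of 5. The range over lateral arrays exceeded that over the third ventricle arrays in 38 of the 57 members (66.7%), as in 66.6% of all genes.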

How the data were processed

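The files hold 1 log2 value for each probe set and array, deposited after RMA. The submitters' processing notes name Affymetrix Expression Console 1.1 as the tool. Build and further settings: not given in the sources used here. Of 35556 probe sets, 21789 had 1 gene symbol in the platform annotation, 1621 several and 12146 none listed. Each of 19938 genes was represented by its probe set with the highest mean, with no filter on low values. The difference between the third and the lateral ventricle was fitted with limma 3.58.1 in R 4.3.3 (lmFit, eBayes, two-sided), adjusted over all genes by Benjamini-Hochberg with a threshold of 0.05, and the code was checked on simulated data. An exact permutation test of 3 against 3 cannot go below 0.1, and the number of arrays limits the precision. Signals of different probe sets were not compared as transcript levels, and summed signals are on the linear scale. Values by array were set for members that passed, up to 12 more with an unadjusted p below 0.05, the 10 with the highest mean, and those with probe sets over 0.5 apart; of each list, genes that passed, otherwise the 2 with the highest mean, and up to 4 that passed without lateral ventricle array 2. Further genes and members described were chosen after their values were seen. Members and lists were chosen with earlier results of these data known. Alternatives covered normalization, filters, probe set choice, array weights, a replicate block and each array left out.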

Additional observations from a re-analysis of the deposited data

How the results depend on the processing

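Genes called numbered 46, 158 with array weights, 57 with a replicate block and 4 to 1644 with each array left out. Members called were 1, and 0 to 2 with each array left out. The median over members was -0.10, and -0.10 to -0.043 with each array left out. Over the 25 members above the gauge in all arrays of a group it was -0.10, -0.036 without the lowest 40% of genes (24 members), -0.23 with the 99th percentile as gauge (19 members), and -0.18 to 0.013 with each array left out. Among the 17 members with values by array under the naming rule, the sign turned for Pcdh9 (-0.0038) with the mean of probe sets, and for Pcdh9 (-0.0036), Pcdh7 (-0.0033) and Cdh20 (-0.14) against lateral ventricle array 2 alone. Against that array alone 13 of all 57 members turned in sign, 0 of them called. Pcdh9 ranged from -0.020 to 0.082 with each array left out. The cause was not tested. Pcdh15 kept its direction in all 14 alternatives and passed in 12. With the replicate block 1 member passed (Pcdh15, limma adjusted p = 0.0169). Same-numbered arrays had correlations of deviations of 0.24, 0.11 and 0.07, so the numbers were not taken as pairs. Low signal over background limits what can be read for 25 members.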
